A study of Macaca fascicularis with 44 samples.

Results

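The amygdala-high genes are 44 of the 17293 gene identifiers counted in this RNA-seq series of macaque brain, or 0.254% of them. They were chosen by their CPM (a gene's reads per 1000000 reads on all genes) in saline libraries. The lowest basolateral amygdala (BLA) value had to be at least 2 CPM, and at least 1.5 times the highest value in posterior dentate gyrus (pDG) and in anterior cingulate cortex (ACC). Anterior dentate gyrus (aDG) and all betamethasone libraries took no part in the choice. The files give identifiers without gene names, and 0 of them could be matched in the gene table used here, so members are named by identifier and no role is given to any of them. For the same reason the labelled regions were not checked against marker genes here.

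The libraries came from female cynomolgus macaques (Macaca fascicularis) treated with betamethasone or with saline. Each of the 4 regions has 6 saline libraries. The betamethasone groups hold 5 libraries from aDG, 5 from pDG, 4 from BLA and 6 from ACC, which makes 44 libraries in all. The labels give no dose, duration or age and do not say which libraries came from one animal, so a p-value reflects only library-to-library spread, which may be technical.

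The BLA is the part of the amygdala that receives most of its cortical and sensory input and is known for learned associations of cues with threat or reward. It contains glutamatergic projection neurons and GABAergic interneurons, and unlike the dentate gyrus and cortex it has no orderly layers. Betamethasone is a synthetic glucocorticoid. It activates the glucocorticoid receptor, a hormone-dependent transcription factor that is present in the amygdala, hippocampus and prefrontal cortex, regions known for their part in the stress response.

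Reads on genes ranged from 28449737 to 83322595 per library, with a median of 44944904. A pair of libraries stood apart in the level of the members. BLA saline replicate 5, which the choice of members left out, had a median member level at 15.5% of the BLA saline median, against 95.5% to 104.0% in the other 5 BLA saline libraries. It lay below all 5 of them for 37 members, above them for 4 and within their range for 3, and 3 members had no read there. The choice required high values in the other 5 and none in this library, which favours its lying below them. Its level and counts over the members are therefore a description only. The aDG saline replicate 5 had a median level at 83.3%, against 21.5% to 23.5% in the other 5 aDG saline libraries. It exceeded all 5 for 43 of the 44 members. These 2 libraries were left out of the values and tests below unless they are named, which leaves 5 saline libraries in BLA and 5 in aDG.

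In the BLA saline libraries the members covered a wide range of levels. Their mean was between 2.56 and 572.9 CPM with a median of 16.5 CPM. It was under 5 CPM for 8 members, from 5 to 20 CPM for 17, from 20 to 100 CPM for 8 and 100 CPM or more for 11. These values describe the choice and are not tested. The lowest BLA library exceeded the highest pDG or ACC library by 1.502 to 7.77 times, with a median of 2.09 times. Just inside the threshold, ENSMFAG00000043708 had a lowest BLA value of 22.0 CPM and a highest other value of 14.7 CPM, and ENSMFAG00000042275 had 229.5 and 151.9 CPM. Just outside it, the nearest identifiers had 11.4 against 7.66 CPM and 153.3 against 102.7 CPM.

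**Figure D1:**
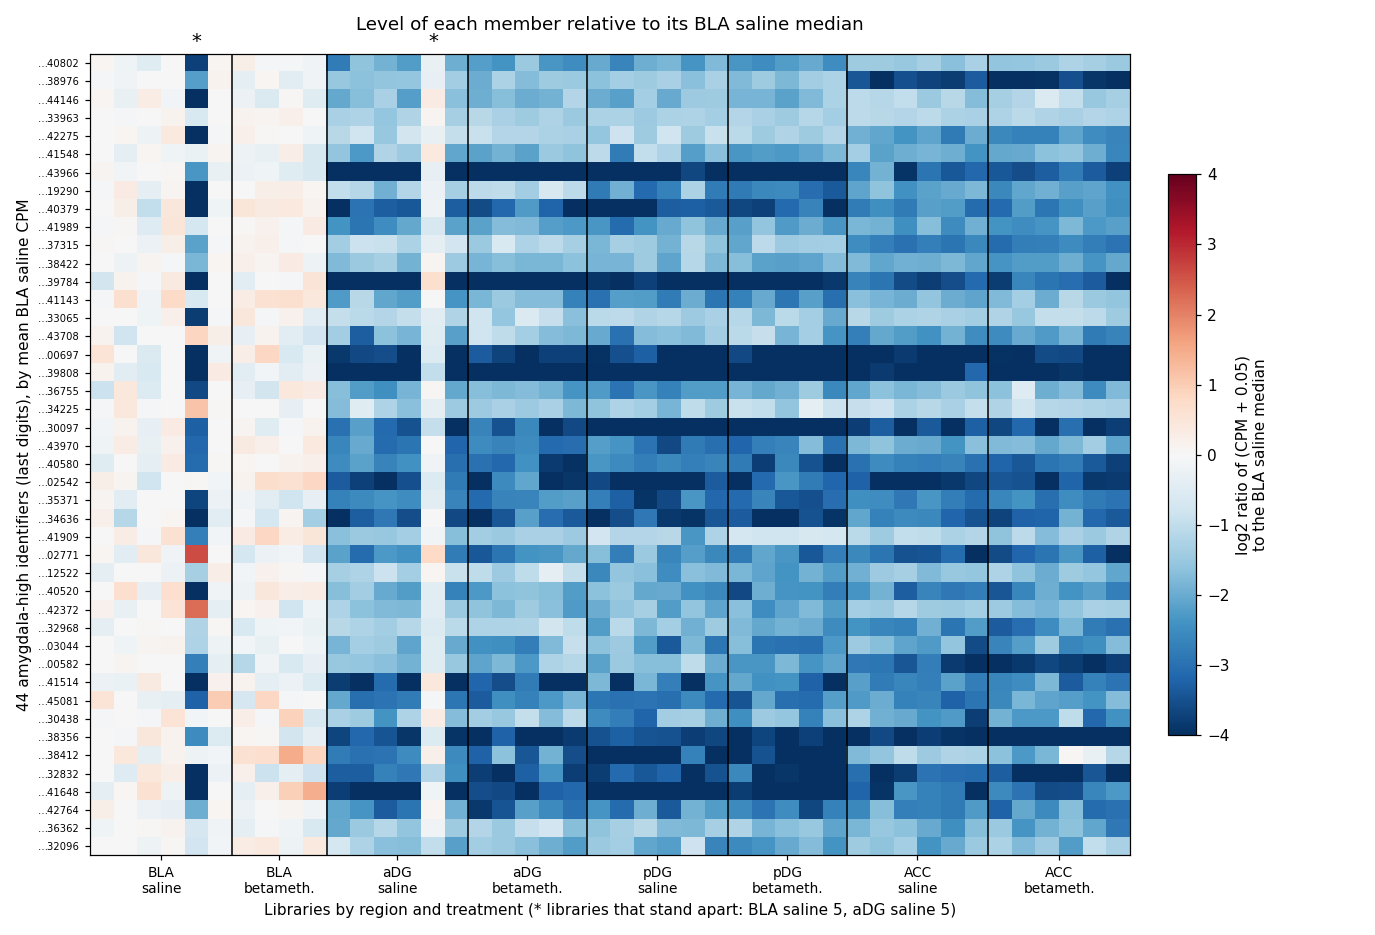
Level of each of the 44 members (rows, last digits of the identifier, ordered by mean BLA saline CPM) in each of the 44 libraries (columns, grouped by region and treatment), as the log2 ratio of CPM + 0.05 to the same value of the member's BLA saline median. Red is above and blue below that median. The starred BLA saline replicate 5 is blue for most members and the starred aDG saline replicate 5 is close to the BLA columns, while the betamethasone BLA columns are as pale as the saline ones.

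The members of highest level were ENSMFAG00000040802 and ENSMFAG00000038976. ENSMFAG00000040802 read 638.4, 541.2, 436.4, 604.7 and 643.5 CPM in the BLA saline libraries and 708.4, 570.1, 581.5 and 552.9 CPM in the BLA betamethasone libraries. Saline and betamethasone values overlapped, at 572.9 ± 86.5 (SD, n = 5) and 603.2 ± 71.1 CPM (SD, n = 4). ENSMFAG00000038976 stood at 370.0 ± 25.3 CPM (SD, n = 5) in BLA saline and 323.1 ± 54.8 CPM (SD, n = 4) in BLA betamethasone libraries. The regions below the BLA were unequal for this member: ACC held 30.2 ± 5.73 CPM in saline (SD, n = 6), while every pDG and aDG library held more than 90 CPM. The largest ratio of the lowest BLA to the highest other saline library belonged to ENSMFAG00000030097, at 7.77, with 19.2 ± 3.35 CPM in BLA saline (SD, n = 5) and 18.2 ± 3.24 CPM in BLA betamethasone libraries (SD, n = 4).

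The betamethasone libraries give an independent view of the regional pattern, since they had no part in the choice. For 43 of the 44 members every BLA betamethasone library lay above every pDG and every ACC betamethasone library, which holds for 3.5% of the 14962 genes tested. All 44 lay above every aDG betamethasone library, against 7.98% of genes, and 43 lay above all 3 other regions, against 2.29%. The exception was ENSMFAG00000036755, named because it was the only one, with 15.5 CPM in ACC betamethasone replicate 2 and 13.5 CPM in the lowest BLA library. The ratio of the lowest BLA to the highest pDG or ACC library had a median of 2.25, and it reached 1.5 for 35 members. Some margins were very thin, and for ENSMFAG00000044146 this ratio was 1.0002. Against the highest aDG library the ratio had a median of 2.52 and reached 1.5 for 36 members. Its lowest value was 1.002, for ENSMFAG00000000582. The same rule applied to the betamethasone libraries gives 60 identifiers, of which 34 are shared, or 77.3% of the members and 56.7% of that list.

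By edgeR's quasi-likelihood test with Benjamini-Hochberg adjustment over all genes, all 44 members were higher in BLA than in pDG betamethasone libraries, where 11.4% of genes were higher. The log2 difference had a median of 2.47 over the members and -0.02 over all genes, and ranged from 0.83 to 7.15. Against ACC all 44 were higher as well, where 18.6% of genes were, with a median of 2.35 and a range from 0.84 to 4.99. Against aDG, a region that the choice did not use in either treatment, all 44 were higher, where 11.9% of genes were, with a median of 2.17 and a range from 0.84 to 6.30. The highest adjusted p among the members was 0.00431 against pDG, 0.00202 against ACC and 0.0181 against aDG in edgeR. DESeq2 called all 44 higher in each comparison, where it called 25.7%, 43.3% and 27.1% of genes in either direction against pDG, ACC and aDG. The 3 comparisons share the same 4 BLA libraries. In bulk tissue, more cells of a type and more RNA per cell cannot be told apart.

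**Figure D2:**
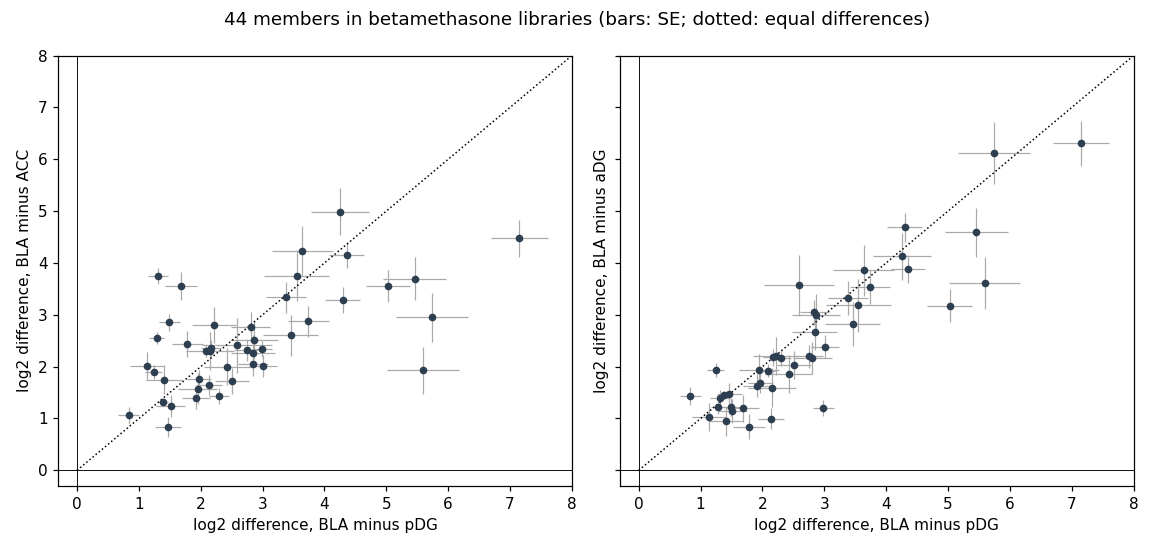
Log2 difference of BLA from pDG (both horizontal axes) against that from ACC (left, vertical axis) and from aDG (right, vertical axis) in betamethasone libraries, 1 point per member, with SE bars from edgeR and a dotted line where both differences are equal. All 44 points lie above 0 on every axis, from 0.83 to 7.15 against pDG, from 0.84 to 4.99 against ACC and from 0.84 to 6.30 against aDG, and the axes share the BLA libraries.

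ENSMFAG00000039808 showed the largest difference from pDG and from aDG. It read 20.2, 24.9, 20.3 and 23.2 CPM in the BLA betamethasone libraries, and from 0.029 to 0.341 CPM in pDG, 0.168 to 0.375 CPM in aDG and 0.370 to 1.78 CPM in ACC betamethasone libraries. No library of another region came near the lowest BLA value. The log2 difference was 7.15 ± 0.45 (SE) from pDG, 6.30 ± 0.43 from aDG and 4.47 ± 0.36 from ACC, with edgeR adjusted p = 5.39e-10, 1.72e-09 and 8.99e-09. ENSMFAG00000043966 came next against both dentate regions, with log2 differences of 5.74 ± 0.58 from pDG and 6.12 ± 0.60 from aDG (SE, edgeR adjusted p = 2.75e-07 and 2.22e-07). Its BLA betamethasone values were 119.5, 123.2, 99.1 and 89.5 CPM, against at most 4.82 CPM in pDG and 4.36 CPM in aDG, and 10.3 to 19.96 CPM in ACC betamethasone libraries. Both members were under 5 CPM in every dentate gyrus betamethasone library, and both had a higher betamethasone median in ACC than in either dentate region. For ENSMFAG00000039808 the lowest ACC value lay within the aDG range.

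The smallest differences were still past the threshold. ENSMFAG00000034225 stood 0.83 ± 0.17 above pDG and 1.06 ± 0.16 above ACC on the log2 scale (SE, edgeR adjusted p = 0.00112 and 3.26e-05). ENSMFAG00000043708, with 1.13 ± 0.27 against pDG, had edgeR adjusted p = 0.00431, and ENSMFAG00000044146, with 0.84 ± 0.20 against ACC, had 0.00202. Against aDG the smallest were ENSMFAG00000032968 at 0.84 ± 0.25 and ENSMFAG00000036362 at 0.94 ± 0.28 (SE, edgeR adjusted p = 0.0174 and 0.0181). ENSMFAG00000036362 is also the 1 member whose lowest BLA betamethasone library, at 1.87 CPM, fell under the 2 CPM of the rule.

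The largest difference from ACC belonged to ENSMFAG00000038356, at 4.99 ± 0.46 on the log2 scale (SE, edgeR adjusted p = 4.82e-08). Its level was low everywhere, at 4.51 ± 1.10 CPM in BLA saline (SD, n = 5) and 3.79 ± 0.948 CPM in BLA betamethasone libraries (SD, n = 4). Most of its stranded reads, 87.8%, lay on the strand opposite to the one counted here. Those opposite-strand reads had a group median between 4.88 and 9.35 CPM in all 8 groups, with no excess in BLA. Only 2 other members had more than 10% of reads on the opposite strand, ENSMFAG00000003044 with 17.9% and ENSMFAG00000000582 with 13.8%, and the median over members was 0.386%.

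Below the BLA, the order of the regions differed between members. By group medians in saline libraries the next-highest region was ACC for 19 members, aDG for 17 and pDG for 8. In betamethasone libraries it was ACC for 17, aDG for 20 and pDG for 7. The same region came next under both treatments for 35 members: 16 with ACC, 15 with aDG and 4 with pDG. ACC was at least 2 times pDG for 8 members in saline and 9 in betamethasone libraries, 6 of them in both. The reverse, pDG at least 2 times ACC, held for 3 and 5 members, 3 of them in both, and ENSMFAG00000038976 above is of that kind.

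The rule did not read aDG, but it did read the BLA saline libraries that aDG is set against here. The gap in saline libraries is therefore partly fixed by the choice and is a description only. The aDG saline median was 24.1% of the BLA saline median over the members, from 0.826% to 53.8%. It was under 20% for 20 members and at least 40% for 7. The highest shares were 53.8% for ENSMFAG00000037315 and 51.6% for ENSMFAG00000042275, and the lowest were 0.826% for ENSMFAG00000039808 and 1.85% for ENSMFAG00000043966. Every one of the 5 BLA saline libraries exceeded every one of the 5 aDG saline libraries for all 44 members, where this holds for 6.31% of 15240 genes, and by at least 1.5 times for 39, where this holds for 1.57%. Nothing is read from these counts, since high BLA saline values chose the members.

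The aDG and pDG are the front and back of one structure, and their members' levels were compared in the betamethasone libraries after their values had been seen. Of the 44 members 4 were higher in aDG, where 1.44% of genes were, and 1 was lower, where 1.24% of genes were (edgeR adjusted p under 0.05). DESeq2 called 5 higher and 2 lower, where it called 5.38% of genes. The median log2 difference was 0.23 over the members and 0.00 over all genes. The choice set an upper bound on saline pDG values and none on aDG values, which favours members higher in aDG than in pDG. These counts and medians are therefore a description only. ENSMFAG00000019290 had 62.9 ± 11.8 CPM in aDG and 17.7 ± 4.03 CPM in pDG (SD, n = 5 each), a log2 difference of 1.79 ± 0.15 (SE). ENSMFAG00000041909 went the other way, at 3.34 ± 0.214 and 5.28 ± 0.274 CPM (SD, n = 5 each), which is -0.70 ± 0.13 on the log2 scale (SE, edgeR adjusted p = 0.00741). These members were named after their values were seen.

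The members' level in the BLA was similar in saline and betamethasone libraries. Their summed level was 3338 ± 224 CPM in saline (SD, n = 5) and 3322 ± 164 CPM in betamethasone libraries (SD, n = 4). As a percent of the BLA saline median, the median member level per library was 95.5 to 104.0 in saline and 90.9 to 102.1 in betamethasone libraries. In the other regions it was 20.4 to 28.1 in aDG, 15.3 to 21.7 in pDG and 15.9 to 24.2 in ACC over both treatments, so that no library of another region came near the BLA range once the pair that stood apart was left out.

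**Figure D3:**
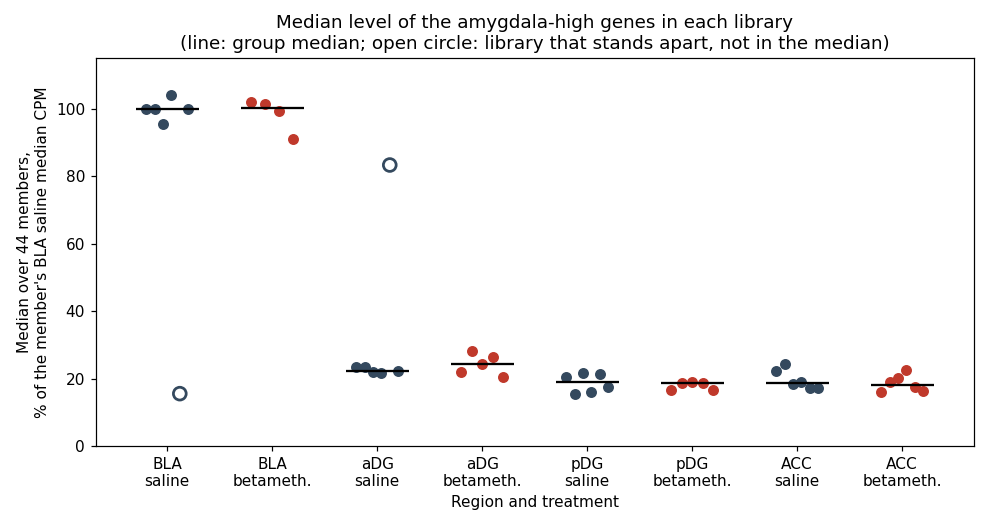
Median over the 44 members in each library (points), as a percent of each member's BLA saline median, by region and treatment, with the group median as a line and the libraries that stand apart as open circles. BLA libraries of both treatments lie between 90.9% and 104.0% except BLA saline replicate 5 at 15.5%, and the other regions lie at or under 28.1% except aDG saline replicate 5 at 83.3%.

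EdgeR called no member changed by betamethasone in BLA, and DESeq2 called 1. In edgeR, 0 of the 44 members and 0 of the 14567 genes tested passed an adjusted p of 0.05 (0% in the background), and the lowest adjusted p among the members was 0.265. At an unadjusted p under 0.05 there were 4 members, 3 higher and 1 lower, or 9.09%, against 13.1% of all genes. DESeq2 called 1 member, where it called 1.19% of genes, and limma voom called 0. The choice of members by high saline BLA values favours a fall with betamethasone, so the direction of the members' median is not read here.

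The log2 change with betamethasone in BLA had a median of 0.03 over the members and -0.01 over all genes, with 24 members above 0 and 20 below. It ranged from -0.43 to 0.98. The median absolute change was 0.18 for the members and 0.17 for all genes, and the median SE of a member was 0.19. The 95% interval lay within a 2-fold change for 41 of the 44 members, or 93.2%, against 83.2% of all genes. The choice required at least 2 CPM of members in these saline libraries, while all genes include lower levels, so the shares are not matched on level. In the other regions the members' share was the lower one, at 69.8% against 87.0% in aDG, 56.1% against 87.0% in pDG and 81.4% against 90.6% in ACC. From 15 to 25 of the 44 members were under 2 CPM in each library there, so these shares are not matched on level either. With BLA saline replicate 5 kept, the median was 0.24 and 34 members were above 0. The share of reads outside annotated genes was 32.1% ± 3.37 in BLA saline (SD, n = 5) and 30.999% ± 2.53 in BLA betamethasone libraries (SD, n = 4), and with that share as a covariate again 0 members were called.

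**Figure D4:**
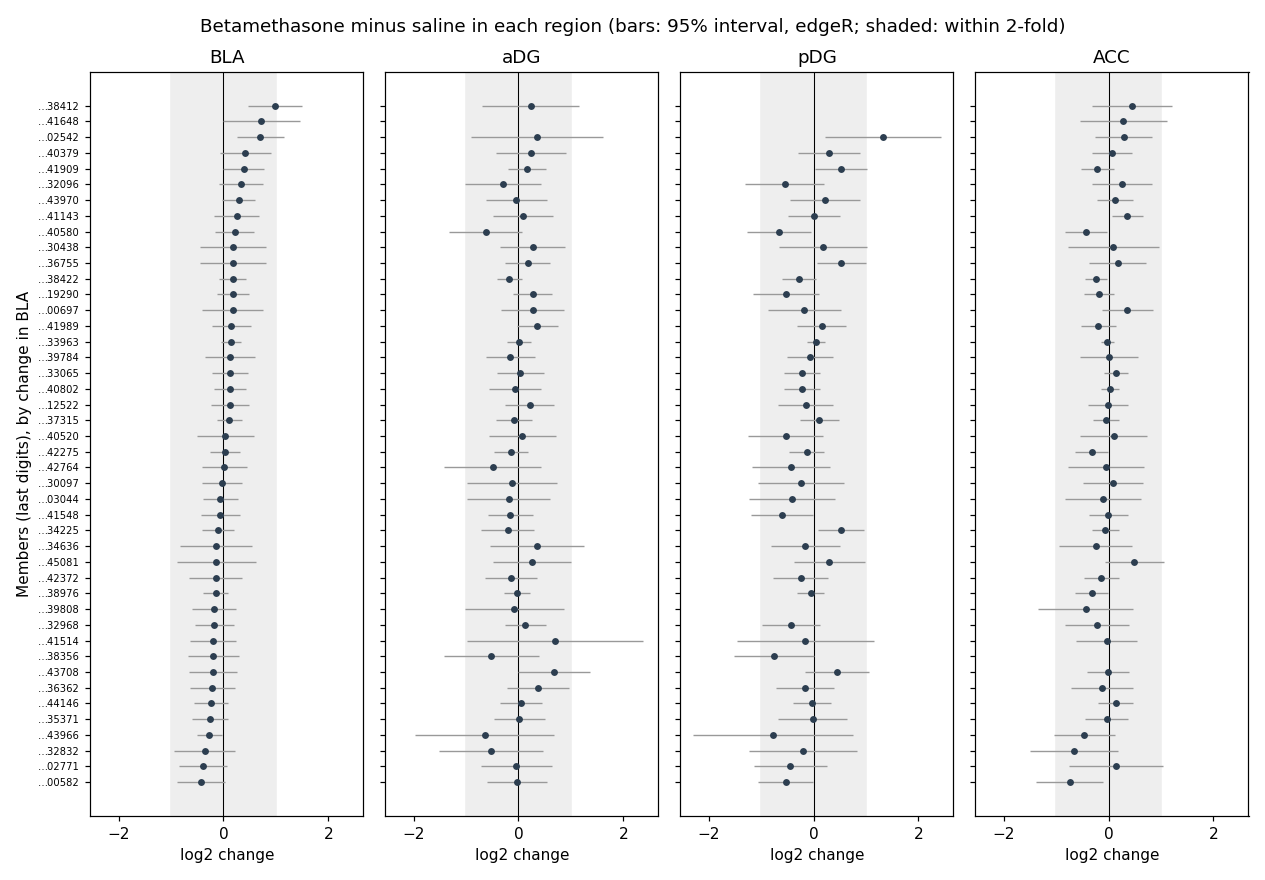
Log2 change with betamethasone (horizontal axes) in BLA, aDG, pDG and ACC for each member (rows, last digits of the identifier, ordered by the change in BLA), with 95% intervals from edgeR, and the range of a 2-fold change shaded. In BLA the members lie between -0.43 and 0.98, the intervals of 41 stay within the shaded range, and a member that could not be tested in a region has no point there.

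ENSMFAG00000038412 had the lowest p among the members with a higher level in BLA betamethasone libraries. It read 4.28, 5.73, 3.22, 4.75 and 3.92 CPM in saline and 6.52, 6.80, 12.01 and 7.88 CPM in betamethasone libraries. The ranges did not overlap, which is the case for 1 of the 44 members, or 2.27%. All betamethasone libraries were higher for 1.33% of genes, and 4.05% did not overlap in either direction. The log2 change was 0.98 ± 0.24 (SE), with edgeR adjusted p = 0.265 and DESeq2 adjusted p = 0.0158. In ACC the same member read from 1.23 to 2.10 CPM in saline and from 0.826 to 4.42 CPM in betamethasone libraries, and it was too low to be tested in pDG.

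ENSMFAG00000002542 read 16.8, 15.3, 8.15, 14.1 and 12.9 CPM in BLA saline and 15.5, 22.8, 21.7 and 24.8 CPM in BLA betamethasone libraries. The groups overlapped through betamethasone replicate 1, and the log2 change was 0.70 ± 0.21 (SE, edgeR adjusted p = 0.306). Of the members with a lower level, ENSMFAG00000043966 read 148.8, 128.8, 139.2, 142.8 and 113.5 CPM in saline against the betamethasone values given above. Its groups overlapped, and its log2 change was -0.27 ± 0.11 (SE, edgeR adjusted p = 0.361). ENSMFAG00000000582 read 5.64, 6.14, 5.72, 5.66 and 4.43 CPM in saline and 2.52, 5.09, 3.70 and 4.52 CPM in betamethasone libraries, with overlap at the lowest saline value. It changed by -0.43 ± 0.21 on the log2 scale (SE, edgeR adjusted p = 0.389).

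**Figure D5:**
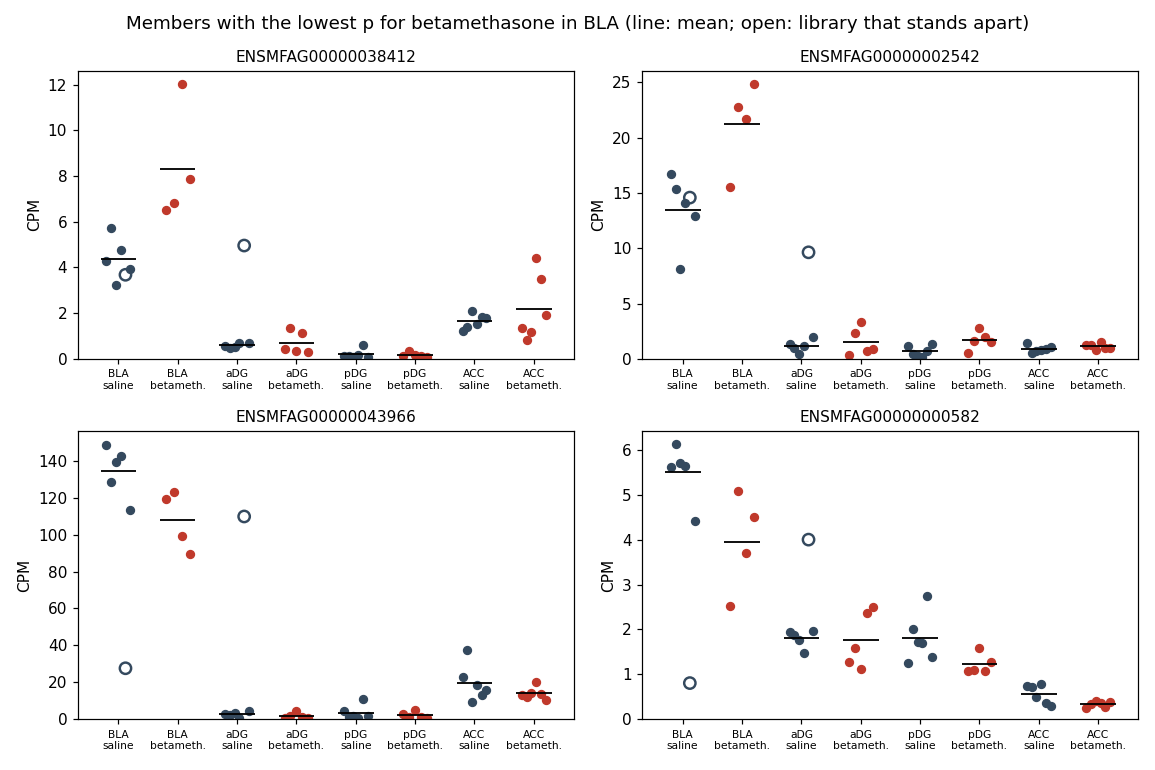
CPM in each library (points) by region and treatment for the 4 members named for the treatment comparison in BLA, with the group mean as a line and the 2 libraries that stand apart as open circles outside the mean. Among these 4 only ENSMFAG00000038412 has BLA groups that do not overlap, with saline values up to 5.73 CPM and betamethasone values from 6.52 CPM.

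In the other regions 0 members were called by edgeR and 0 by DESeq2, which called 0.222% of genes in aDG, 0.573% in pDG and 3.94% in ACC. In aDG 43 members could be tested, with a median log2 change of 0.01 over the members and 0.02 over all genes, and 0 had an unadjusted p under 0.05, against 4.27% of genes. Among all genes edgeR called 0.00691% higher there. With aDG saline replicate 5 kept, the members' median was -0.60 with 2 members above 0, and again 0 members were called. In pDG 41 members could be tested, with a median of -0.16 against 0.02 over all genes, 13 members above 0 and 28 below. There 7 members had an unadjusted p under 0.05, 4 higher and 3 lower, or 17.1%, against 8.72% of genes. EdgeR called 0.00693% of genes higher and 0% lower. In ACC 43 members could be tested, with a median of -0.02, and 6 had an unadjusted p under 0.05, 1 higher and 5 lower, or 14.0%, against 16% of genes. Among all genes edgeR called 0.206% higher and 0.124% lower in ACC. The saline and betamethasone ranges overlapped for every member tested in these regions, while 0.787% of genes in aDG, 0.88% in pDG and 1.57% in ACC had ranges that did not overlap. The members' saline pDG and ACC values served as upper bounds in the choice, which favours a rise with betamethasone there.

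The members of lowest p in each of these regions had adjusted p well above the threshold. In pDG, ENSMFAG00000034225 read 5.99, 7.81, 7.15, 4.97, 9.09 and 6.78 CPM in saline and 9.75, 9.14, 6.11, 14.2 and 10.01 CPM in betamethasone libraries, with overlapping groups and a difference on the log2 scale of 0.52 ± 0.20 (SE, edgeR adjusted p = 0.506). ENSMFAG00000040580 had the lowest p among lower members in both aDG and pDG, with log2 changes of -0.63 ± 0.32 and -0.65 ± 0.28 (SE, edgeR adjusted p = 0.9998 and 0.541). In aDG the member with the lowest p among the higher ones was ENSMFAG00000043708, at 0.67 ± 0.32 (SE, edgeR adjusted p = 0.9998). In ACC these members were ENSMFAG00000041143, at 0.36 ± 0.14 (SE, edgeR adjusted p = 0.232), and ENSMFAG00000000582, at -0.74 ± 0.30 (SE, edgeR adjusted p = 0.246).

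Whether the response to betamethasone differed between BLA and each other region was tested as an interaction of treatment and region over 15240 genes. In edgeR 0 members and 0 of all genes were called in each of the 3 contrasts (0% in the background). DESeq2 called 0 members in each, and 6 genes that are not members against ACC, or 0.0394%. At an unadjusted p under 0.05 there were 3 members against aDG, or 6.82% beside 4.4% of genes, 5 against pDG, or 11.4% beside 2.72%, and 2 against ACC, or 4.55% beside 4.44%. The choice read the saline BLA, pDG and ACC libraries that enter these contrasts. It favours a fall in BLA and a rise in pDG and ACC, so these shares are a description only. The lowest adjusted p among the members was 0.830 against aDG, 0.9999 against pDG and 0.934 against ACC (edgeR). ENSMFAG00000040580 had the lowest p against aDG, where its change in BLA exceeded that in aDG by 0.86 ± 0.36 on the log2 scale (SE). ENSMFAG00000038422 had the lowest p against pDG, at 0.47 ± 0.18 (SE), and ENSMFAG00000041909 against ACC, at 0.60 ± 0.25 (SE). In the opposite direction the lowest p belonged to ENSMFAG00000043708 against aDG at -0.87 ± 0.41, ENSMFAG00000034225 against pDG at -0.60 ± 0.27 and ENSMFAG00000045081 against ACC at -0.62 ± 0.43 (SE). The contrasts share the BLA libraries.

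Over the 4 BLA betamethasone libraries the members' coefficient of variation had a median of 18.2%, from 5.82% to 53.7%. The median was 11.6% over the 11988 genes with at least 2 CPM in each of these libraries, a floor that 1 member did not meet. The members and these genes were not matched on level, so the values do not show that members vary more than other genes of like level. There was little sign of joint variation: over the 9 BLA libraries, after removing each treatment group's mean, the 946 pairs of members had a median Pearson correlation of 0.05, with 54.7% of pairs above 0. Over 12594 genes the median was 0.02 and 51.4% of pairs were above 0. These correlations rest on 9 libraries and are a description only.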

How the data were processed

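RNA-seq read counts per gene from 44 libraries were used as deposited. Per the submitters' processing notes, reads were aligned with STAR; the sources used here do not give its version, annotation or settings. The deposited counts have 1 column without strand and 1 for each strand. Column 4 was used, which held 51.7 to 79.3 times as many gene reads as the opposite strand. Rows for unmapped (10.97% to 31.4%), multimapping (0), ambiguous (0.333% to 0.455%) and no-feature reads (24.5% to 37.2%) were left out. The 139 repeated identifiers were summed, none of them a member.

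The members and lists were chosen with earlier results of these data known. CPM is the count per 1000000 gene reads of the library. Members of the amygdala-high list were found from saline CPM as described above. Tests used edgeR 4.0.16 in R 4.3.3 (TMM scaling, filterByExpr with a minimum count of 10 and total of 15, robust quasi-likelihood, Benjamini-Hochberg adjustment over all tested genes, threshold 0.05) in 1 fit per region for treatment, 1 over the betamethasone libraries for region differences and 1 over all groups for the interaction, without BLA saline replicate 5 and aDG saline replicate 5. DESeq2 1.42.0, limma voom (limma 3.58.1), upper-quartile scaling, no filter, all libraries, single libraries left out, the no-feature share as a covariate and sets of title numbers as a block were alternatives. The common biological coefficient of variation was 21.5% in BLA, 24.2% in aDG, 23.8% in pDG and 19.0% in ACC. Identifiers named are those of highest level, largest and smallest difference or lowest p in each direction. The script for the tests was tested on simulated data. Replicate numbers follow accession order and were not used to pair libraries, although libraries with the same number can fall in the same set of title numbers.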

Additional observations from a re-analysis of the deposited data

Results flagged for a closer look

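In each group of 4 to 6 libraries the highest and lowest value was compared with the rest by Dixon's criterion, for the median level of the members and for the CPM of the 21 members named in the treatment, region and pattern comparisons. This gave 39 values far from their group in 176 groups. The rate of about 1 in 20 that chance gives in a single group is no yardstick here. The groups read the same libraries again, and the named members were picked for extreme values. The choice of members also left out BLA saline replicate 5, which favours low values there. Of these 18 belong to aDG saline replicate 5 and 10 to BLA saline replicate 5. The causes were not tested.

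The median level of the members, as a percent of the BLA saline median, was 15.5 in BLA saline replicate 5 (95.5 to 104.0 in the others of its group) and 83.3 in aDG saline replicate 5 (21.5 to 23.5).

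In BLA saline replicate 5, ENSMFAG00000000582 read 0.803 CPM (others 4.43 to 6.14) and ENSMFAG00000037315 read 26.4 CPM (97.9 to 136.4). ENSMFAG00000038422 read 24.7 CPM (76.1 to 94.4), ENSMFAG00000038976 read 81.0 CPM (337.7 to 407.5) and ENSMFAG00000040802 read 45.0 CPM (436.4 to 643.5). ENSMFAG00000042275 read 11.0 CPM (229.5 to 349.4), ENSMFAG00000043966 read 27.5 CPM (113.5 to 148.8) and ENSMFAG00000044146 read 20.01 CPM (259.9 to 396.8). ENSMFAG00000034225 went the other way, at 40.1 CPM (17.3 to 24.8).

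In aDG saline replicate 5 all values lay above the group. The low-level members there were ENSMFAG00000000582 at 4.01 CPM (others 1.49 to 1.96), ENSMFAG00000032968 at 4.29 (2.36 to 2.96), ENSMFAG00000036362 at 2.60 (0.658 to 1.28), ENSMFAG00000038356 at 2.99 (0.241 to 0.450), ENSMFAG00000038412 at 4.96 (0.492 to 0.700), ENSMFAG00000045081 at 4.15 (0.492 to 1.02) and ENSMFAG00000041909 at 8.23 (2.66 to 3.38). ENSMFAG00000002542 read 9.63 CPM (0.415 to 1.96), ENSMFAG00000030097 read 9.60 (1.09 to 4.13), ENSMFAG00000039808 read 13.6 (0.149 to 0.634) and ENSMFAG00000040580 read 14.3 (1.90 to 3.51). At higher levels ENSMFAG00000041143 read 66.9 CPM (12.8 to 30.3), ENSMFAG00000038422 read 94.1 (23.3 to 34.6), ENSMFAG00000043966 read 109.8 (0.672 to 4.16) and ENSMFAG00000038976 read 292.7 (119.2 to 142.4). ENSMFAG00000044146 read 402.2 CPM (69.4 to 131.0) and ENSMFAG00000040802 read 496.1 CPM (87.8 to 196.3).

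The other 11 values came from 8 libraries. In pDG saline replicate 5, ENSMFAG00000038412 read 0.619 CPM (others 0.0952 to 0.163), ENSMFAG00000043966 read 11.0 (0.627 to 4.20) and ENSMFAG00000045081 read 0.701 (0.452 to 0.533). In pDG saline replicate 1, ENSMFAG00000030097 read 0.207 CPM (0.701 to 0.874), and in pDG betamethasone replicate 2 ENSMFAG00000038412 read 0.341 (0.0962 to 0.166). In aDG betamethasone replicate 3, ENSMFAG00000040802 read 215.5 CPM (108.3 to 130.3) and ENSMFAG00000043966 read 4.36 (0.370 to 1.501), and in aDG betamethasone replicate 5 ENSMFAG00000044146 read 141.9 (80.7 to 97.7). ENSMFAG00000034225 read 10.6 CPM in ACC betamethasone replicate 2 (7.50 to 8.27) and 14.6 CPM in BLA betamethasone replicate 3 (18.3 to 18.6), and ENSMFAG00000042275 read 60.8 CPM in ACC betamethasone replicate 4 (40.8 to 46.9).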

How the results depend on the processing

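The member list held 23 identifiers at a fold of 2 and 29 at a minimum of 5 CPM, and 51 at a minimum of 1 CPM. With BLA saline replicate 5 kept it held 10, and with counts without strand 46, of which 43 were shared. Leaving out 1 saline library at a time gave 44 to 58 members, and the 58 came without BLA saline replicate 2. All 44 were always among them, which the rule fixes in advance. Leaving out a library can only raise the lowest BLA value or lower the highest other value, so this says nothing on how stable the list is. The counts of 44 members higher in BLA than in pDG, ACC and aDG betamethasone libraries came out the same in every alternative run. For treatment in BLA, DESeq2 called 1 member (ENSMFAG00000038412, log2 change 0.98) where edgeR, voom and the other fits called 0, and the cause was not tested. The median log2 change of the members in BLA was 0.24 with BLA saline replicate 5 kept, -0.01 with upper-quartile scaling and -0.04 to 0.12 when 1 library was left out. For aDG against pDG, 5 members were called in the main fit and 4 to 6 when 1 library was left out, and 5 higher and 2 lower in DESeq2; this comparison, the single-library fits of the interaction and of the list, and the fits on the libraries of the block without it were added after the data were seen. Of the log2 differences of members named for a treatment, BLA region or interaction comparison, 0 changed sign in the alternatives run. Each was followed only in the comparison that named it, where its large or small difference or low p had picked it. Members named only for their level, ratio or aDG share were not followed in this way. Title numbers fall into 10 sets over regions: 49 of 55 matched pairs of libraries had a correlation of deviations above 0.1, from -0.07 to 0.84. In 45 of the 55 the library of the same set was the closest of its group. Libraries of a set thus tended to deviate together, which the main fits do not take into account. The labels do not say whether a set is 1 animal, so the sets were used only as an alternative block. With these sets as a replicate block the region counts remained 44 in each comparison with BLA and were 6 for aDG against pDG, also 6 in the same libraries without it, and 0 members were called for the interaction, beside 2 genes that are not members against ACC. At an unadjusted p under 0.05 the block gave 4, 7 and 5 members against aDG, pDG and ACC beside 15.5%, 9.13% and 9.19% of genes. The same libraries without it gave 2, 5 and 3 members beside 5.21%, 3.18% and 2.39%. Whether the members' share is above that of all genes in the aDG contrast thus depends on the fit. These shares too are a description only, since the choice read saline libraries of these contrasts. No paired analysis was possible because the treatment groups share no set for the treatment comparison within a region. Keeping both libraries that stood apart gave median interactions of 0.84, 0.33 and 0.27 against aDG, pDG and ACC, beside 0.10, 0.12 and 0.11 without them, with 0 members called; region differences use no saline library, so this alternative was not run there. The filter on low counts left 1 member untested in aDG, 3 in pDG and 1 in ACC.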

Other observations

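Both libraries that stand apart carry title numbers of the same set. Over the 44 members, log2(CPM + 0.5) of aDG saline replicate 5 had a Pearson correlation of 0.99 with the BLA saline mean and 0.89 with the aDG saline mean, with a median difference of -0.23 and 1.85. For BLA saline replicate 5 the correlation was 0.67 with the BLA saline mean and 0.72, 0.73 and 0.71 with the aDG, pDG and ACC saline means, with median differences of -2.23, -0.27, -0.17 and 0.26. An ordinary library, BLA saline replicate 3, had 0.98 with BLA and 0.90 with aDG. The members share depth and the choice of libraries, so these values are a description. BLA saline replicate 5 also held members above the BLA range: 3 reached at least 2 times the BLA median, and the highest, ENSMFAG00000002771, reached 616%.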
